A study of Mus musculus with 8 samples.

Results

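H3K4me1-only regions lost in cells carrying the NANOG fusion were stretches of the mouse genome with an H3K4me1 peak in NanogWT, no H3K4me1 peak in NanogBiD, and no FLAG, BRG1 or H3K27ac peak in either arm. They were chosen by merging overlapping or touching H3K4me1 peaks of both arms and sorting the merged regions by the lists that had a peak there. There were 15006 of them among 86573 H3K4me1 regions. Across all H3K4me1 regions, 30087 (34.8%) had a NanogWT and no NanogBiD peak, and 15081 of these also held a peak of another target. Of the 25955 regions with H3K4me1 and no other target in either arm, 57.8% were lost, 5101 were gained (a peak in NanogBiD alone) and 5848 were common to both arms. The choice of regions rested on the peak calls, so the counts, heights and scores of H3K4me1 and the absence of the other targets describe the rule and are no evidence of a difference.

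CUT&Tag, an assay in which an antibody brings a transposase to its target and neighbouring DNA is tagged for sequencing, was carried out on mouse embryonic fibroblasts (MEF) at day 5 of reprogramming. Both arms received Oct4. It was combined with Nanog in the arm called NanogWT and with NanogN70 in the arm called NanogBiD, where NANOG carries at its N terminus the domain of SS18 that contacts BRG1. NanogN70 is the name in the labels, and that it stands for NanogBiD follows from the study's own description. Antibodies against the FLAG tag on NANOG, against Smarca4 (Brg1), H3K27ac and H3K4me1 gave 8 peak lists, 1 for each of 4 targets in each of 2 arms. Per the study's methods, the MEF came from embryos of Oct4-GFP reporter (OG2) males and 129 females, the factors were delivered by retrovirus from pMXs vectors, and the cells grew in iCD3 medium. Each list describes the infected culture as a whole, so fewer cells with a mark and less of the mark per cell cannot be told apart. Replicates had been merged before peak calling, which left 1 list per group. No test between arms could be made, and each interval below is a 95% interval for counting error alone.

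H3K4me1 is deposited mainly by the methyltransferases MLL3 and MLL4 and marks enhancers, where it often precedes activity. Enhancers with H3K4me1 and without H3K27ac are commonly called primed, and those with both marks active. BRG1 (Smarca4) is an ATPase of the BAF complex, which moves nucleosomes, and SS18 is a BAF subunit. NANOG and OCT4 are transcription factors of the pluripotent cell, and reprogramming replaces the enhancer set of the fibroblast with that of the stem cell.

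The sequences below are shown because they carry the tallest lost H3K4me1 peaks. The Itpkc, Gm25888 and Tacc2 runs surround the NanogWT summits that were highest of all lost regions, and the Tacc2, Gm25232 and AC133451.1 runs those that were highest among lost regions with an AP-1 consensus. AP-1 is the FOS and JUN family of transcription factors, which bind fibroblast enhancers. Each run holds the summit and 100 bases either side on the plus strand of GRCm38 (mm10) from the RefSeq assembly, 5′ to 3′, and capitals mark the AP-1 consensus TGACTCA or its reverse complement TGAGTCA.

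Itpkc region, chr7:27224946-27225146: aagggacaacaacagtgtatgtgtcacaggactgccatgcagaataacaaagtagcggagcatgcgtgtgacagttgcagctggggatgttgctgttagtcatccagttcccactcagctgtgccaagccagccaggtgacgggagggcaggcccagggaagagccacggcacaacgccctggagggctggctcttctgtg

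Gm25888 region, chr12:86812035-86812235: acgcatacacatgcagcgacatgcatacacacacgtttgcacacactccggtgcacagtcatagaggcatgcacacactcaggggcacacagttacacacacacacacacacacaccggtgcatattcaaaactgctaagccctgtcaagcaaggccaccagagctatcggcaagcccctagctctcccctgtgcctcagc

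Tacc2 region, chr7:130696890-130697090: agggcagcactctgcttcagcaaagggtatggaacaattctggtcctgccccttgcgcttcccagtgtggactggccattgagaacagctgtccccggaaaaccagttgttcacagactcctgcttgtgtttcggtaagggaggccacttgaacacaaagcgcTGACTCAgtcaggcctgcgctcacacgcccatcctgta

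Gm25232 region, chr13:48571360-48571560: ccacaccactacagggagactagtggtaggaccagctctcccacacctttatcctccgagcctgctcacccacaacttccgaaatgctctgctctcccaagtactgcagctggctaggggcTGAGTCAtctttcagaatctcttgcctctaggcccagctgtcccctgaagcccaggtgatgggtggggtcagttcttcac

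AC133451.1 region, chr19:53408440-53408640: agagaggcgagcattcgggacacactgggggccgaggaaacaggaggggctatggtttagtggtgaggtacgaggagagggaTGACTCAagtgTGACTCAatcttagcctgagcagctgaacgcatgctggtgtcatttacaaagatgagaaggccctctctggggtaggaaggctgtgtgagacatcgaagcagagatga

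The lost region at Itpkc, an inositol trisphosphate kinase gene, spanned chr7:27222986-27226521 and had the highest summit, at 31 tags. Its peak score was only 52.0, close to the lowest score of 50 in the lists, and an H3K27ac peak lay 0.221 kb away in NanogBiD and 0.295 kb away in NanogWT. The region at chr12:86811560-86812639 reached 29 tags and lay 1.60 kb from the start site of the small RNA gene Gm25888. Soft-masked repeat made up 40.8% of its printed run, in which alternating CA bases can be read. The region at chr7:130696094-130697474 also reached 29 tags and lay in an intron of Tacc2, a centrosome-associated coiled-coil gene, 3.33 kb from a start site. Its AP-1 match began at base 164 of the printed run. The match near Gm25232 (chr13:48571057-48571907, 26 tags) began at base 122. The intergenic region at chr19:53408119-53408887, at 25 tags, held 2 AP-1 matches that began at bases 83 and 94.

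The next highest summits were at 28 tags in an intron of Adgrl1, a latrophilin adhesion receptor (chr8:83902851-83904354), and at 27 tags in the promoter of K230010J24Rik (chr15:76014780-76015894) and in an intron of Cux1, a homeobox repressor (chr5:136465095-136466459). The K230010J24Rik region had the highest score of these 6 regions, at 114. At all 6 the nearest NanogBiD H3K4me1 peak lay at least 1.79 kb away. At the Itpkc region every other target had a peak within 1 kb in both arms, whereas at the K230010J24Rik region none of the other targets had a peak closer than 4.53 kb.

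The lost regions were small peaks. Their NanogWT summit height, the number of overlapping tags at the summit, ran from 8 to 31 tags with a median of 13 (SD 2.63, n = 15006 regions). Their median length was 720 bp (from 294 to 6015 bp), and they covered 12.2 Mb in all. The median score, the peak caller's significance score, was 66.2, and 3082 regions (20.5%) scored under 55. For the gained regions the median NanogBiD height was 11 tags and the median length 622 bp. The common regions were longer, at a median of 1006 bp, with median heights of 14 tags in NanogWT and 13 in NanogBiD. Within the common regions the summit was lower in NanogBiD at 64.2% and higher at 23.5%, with a median log2 ratio of NanogBiD over NanogWT of -0.18.

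At the edge of the rule, 723 common regions (12.4%) were kept among the common ones by a NanogBiD peak that scored under 55. On the other side, 5011 regions with H3K4me1 in NanogWT alone were left out because of a peak in a single one of the 6 other lists. That list was most often FLAG in NanogWT (2219 regions), then FLAG in NanogBiD (1087), and least often BRG1 in NanogBiD (227). Another target's peak lay within 100 bp of 251 lost regions (1.67%) and within 1 kb of 2083 (13.9%). No FLAG, BRG1 or H3K27ac peak of either arm lay within 10 kb of 4742 lost regions (31.6%).

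H3K4me1 was missing in NanogBiD more often where it stood alone. Of 20854 NanogWT H3K4me1 regions without another target, 72.0% (71.3 to 72.6%) had no NanogBiD peak, against 29.7% (29.3 to 30.1%) of the 50733 with one, and 42.0% of both together. The share fell with summit height in both sets. At 10 to 11 tags it was 83.5% without and 54.1% with another target, and at 21 to 25 tags 43.7% and 11%. The gap between both sets was thus present in every height class. The other targets helped to choose the regions and the lost class used the same H3K4me1 calls, so these shares are a description.

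**Figure D1:**
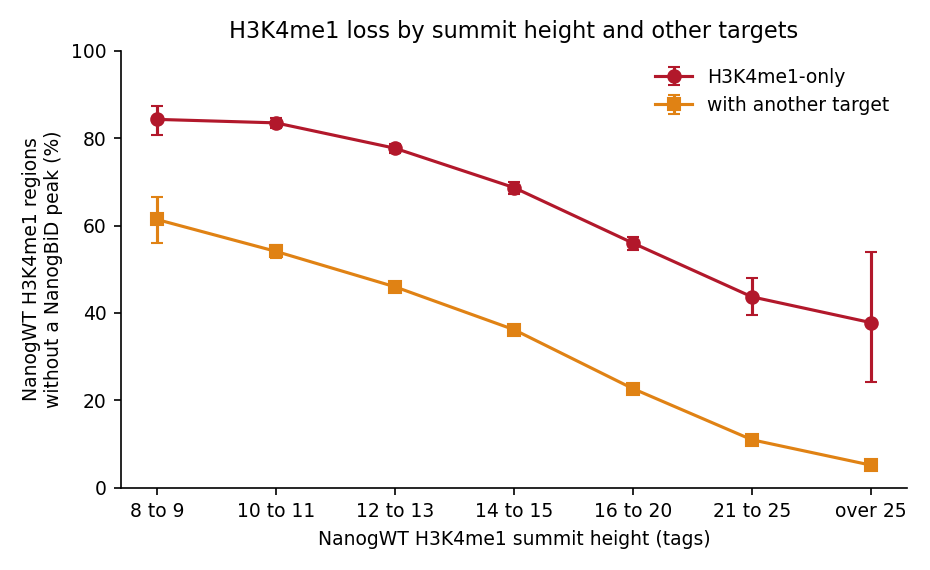
Share of NanogWT H3K4me1 regions without a NanogBiD H3K4me1 peak (y axis, percent) by NanogWT summit height (x axis, tags), for regions with H3K4me1 alone (circles) and with a FLAG, BRG1 or H3K27ac peak of either arm (squares), with Wilson 95% intervals for counting error. The share falls with height in both sets and is higher for H3K4me1-only regions in every class, from 84.3% against 61.4% at 8 to 9 tags to 37.8% against 5.19% over 25 tags.

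There were 2.94 times as many lost as gained regions (2.85 to 3.04), and the NanogWT H3K4me1 list was also the longer, at 72242 peaks against 57156. For the other targets NanogBiD had the longer list, with 53748 against 30859 BRG1 peaks, 74782 against 58940 FLAG peaks and 42598 against 35452 H3K27ac peaks. When the longer list of each target was cut to its highest-scoring peaks so that both arms had equal numbers, 9565 regions were lost and 7371 gained, a ratio of 1.30. Library depth is unknown, and its part in the lengths of the lists was not tested. With equal lists the share lost was 61.6% for H3K4me1-only regions and 24.0% for regions with another target.

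H3K27ac lay at fibroblast marker genes in both arms. Peaks lay within 2 kb of a start site of 6 of 7 fibroblast markers in each arm (Col1a1, Col1a2, Col3a1, Thy1, Pdgfrb and Twist2, and not Prrx1), beside 57.6% of all protein-coding genes in NanogWT and 60.5% in NanogBiD. Of 5 pluripotent cell markers, 0 had such a peak in NanogWT and 2, Dppa3 and Tdgf1, in NanogBiD. None of 3 epithelial markers had one in either arm, while Tek, an endothelial marker, had one in both, and Cdh5 (endothelial) and Ptprc (blood) had one in NanogBiD.

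The lost regions were mostly distal to start sites. Promoters, taken as 2 kb either side of a start site, held 15.6% of lost, 17.4% of gained and 35.0% of common regions, and covered 10.9% of chromosomes 1 to 19 and X. The share at promoters was 19.4 percentage points lower in the lost than in the common regions (-20.8 to -18.1). Introns held 42.2% of the lost regions against 27.3% of the common ones, and intergenic sequence 34.6% against 29.4%. The median distance to a start site was 12.1 kb for lost, 12 kb for gained and 6.30 kb for common regions. Against the gained regions, of which 38.5% were intronic and 36.8% intergenic, the differences (lost minus gained) were 3.72 points in introns (2.16 to 5.27), -2.18 points in intergenic sequence (-3.71 to -0.659) and -1.87 points at promoters (-3.08 to -0.692).

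The lower share at promoters was also seen at matched height. Among regions with NanogWT summits of 8 to 11 tags, 13.7% of the lost and 22.5% of the common regions lay at promoters. At 12 to 15 tags these shares were 14.8% and 30.5%, and at 16 tags and over 21.2% and 45.9%. Where a region did lie at a promoter, the gene was protein-coding for 67.2% of the 2338 lost regions (65.3 to 69.1%) and for 81.7% of the 2048 common regions (80.0 to 83.3%), and a processed pseudogene for 8.64% and 3.66%. The gained regions resembled the lost ones in these shares, at 66.6% protein-coding (63.5 to 69.6%) and 6.74% processed pseudogene. For long intergenic noncoding RNA genes they did not, at 13.3% of gained (11.2 to 15.6%), 9.58% of lost (8.45 to 10.8%) and 8.69% of common regions at promoters. The lost regions with another target in either arm had 20.7% at promoters.

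**Figure D2:**
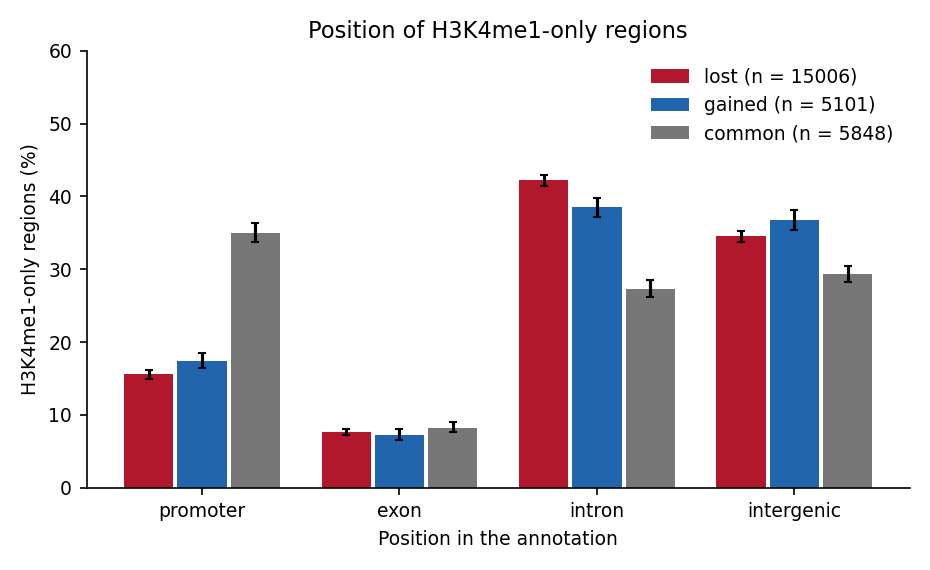
Share of H3K4me1-only regions (y axis, percent) at promoters (within 2 kb of a start site), exons, introns and intergenic sequence, for regions lost in NanogBiD, gained in NanogBiD and common to both arms, with Wilson 95% intervals for counting error. Common regions stand apart at promoters, at 35.0% against 15.6% of lost and 17.4% of gained regions.

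The sequence at the summits, which the rule did not use, differed in the same direction. CpG islands are stretches rich in CG pairs found at many promoters. Of 300 bp windows centred on the summit, 1.67% (1.47 to 1.88%) were CpG-rich in the lost regions, defined by a GC content of at least 50% and an observed over expected CpG ratio of at least 0.6. The share was 3.49% in gained and 17.0% in common regions, 11.3% over all H3K4me1 regions, and 0.920% in windows 5 kb downstream of the lost summits. Outside promoters it was 0.789% for lost, 1.52% for gained and 5.45% for common regions. At matched NanogWT height the contrast was 1.01% against 6.32% (8 to 11 tags), 1.49% against 13.2% (12 to 15 tags) and 3.31% against 26.2% (16 tags and over) for lost against common regions.

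Median GC content was 49.0% in lost, 49.3% in gained and 53.0% in common windows, and 44.0% in windows 5 kb downstream of the lost summits. Windows in which repeat outweighed other sequence were 8% of the lost, 5.80% of the gained and 3.78% of the common regions. In the windows downstream of lost summits that share was 19.1%, so lost regions held less repeat than their own surroundings and more than common regions.

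Matches to binding motifs were counted on both strands of the same windows. A match is a string of letters and no proof of binding. Base composition differed between the windows compared, with a median GC of 49.0% at lost summits, 53.0% in common windows and 44.0% downstream of lost summits. Its part in the motif shares was not tested. The AP-1 consensus TGACTCA was found in 11.6% of lost windows (11.1 to 12.1%), against 5.27% (4.93 to 5.64%) at 5 kb downstream. It was found in 9.68% of gained, 9.34% of common and 13.7% of all H3K4me1 windows. The lost share was therefore above that of its surroundings but below that of all H3K4me1 regions. Outside promoters the difference between lost and common regions was 0.675 points (-0.502 to 1.79), within counting error. By NanogWT height, AP-1 was in 11.4% of lost (10.4 to 12.5%) and 10.5% of common windows (8.34 to 13.1%) outside promoters at 8 to 11 tags. At 12 to 15 tags these were 12.1% (11.3 to 12.9%) and 9.86% (8.63 to 11.3%), and at 16 tags and over 11.6% (10.3 to 13%) and 13.7% (11.8 to 15.8%). The direction differed between height classes. In the class of 12 to 15 tags the lost share was the higher, and the bounds met only as rounded, at 11.3%. In the other classes the intervals overlapped. No interval was computed for the difference within a height class, and overlap of separate intervals does not decide it.

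CTCF, the factor that bounds chromatin loops, differed between lost and both other classes. Its consensus was in 1.32% of lost windows (1.15 to 1.51%), against 3.63% of gained and 3.39% of common windows, 2.06% of all H3K4me1 windows and 0.200% of windows downstream of lost summits. Outside promoters the shares were 1.26% for lost, 3.66% for gained and 4.24% for common regions, a difference of -2.97 points (-3.69 to -2.34) between lost and common.

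The E-box CAGCTG, bound by basic helix-loop-helix factors, was in 22.9% of lost windows against 12.6% downstream, and GGAATG, bound by TEAD factors of the Hippo pathway, in 19% against 15.6%. In common windows these shares were 25.2% and 16.6%. The ETS consensus CCGGAA was in 3.45% of lost and 5.25% of common windows, and the RUNX consensus TGTGGTT in 6.91% and 5.49%, with RUNX in 7.73% of windows downstream of lost summits. Outside promoters the difference between lost and common regions was within counting error for RUNX (0.627 points, -0.295 to 1.48) and TEAD (0.962 points, -0.474 to 2.35). The motifs of pluripotency factors did not exceed the downstream windows beyond counting error at lost summits. The SOX consensus ACAAAG or ACAATG was in 33.2% of lost windows, 26.9% of common windows and 36.9% of windows downstream of lost summits, with 2.81 points more in lost than in common regions outside promoters (1.11 to 4.49). Gained windows held it in 34.4%, and outside promoters lost minus gained was -1.71 points (-3.38 to -0.0526). The OCT octamer ATGCAAAT was in 2.05% of lost windows and 1.94% downstream. The octamer was in 2.98% of gained windows, and lost minus gained came to -0.927 points (-1.47 to -0.433). The homeobox core TAATTA was in 3.71% of lost, 5.53% of gained and 2.75% of common windows, and in 8.98% of windows downstream of lost summits. The NFI consensus, a pair of half-sites TTGGC and GCCAA spaced by 5 bases, occurred in 3 lost windows.

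**Figure D3:**
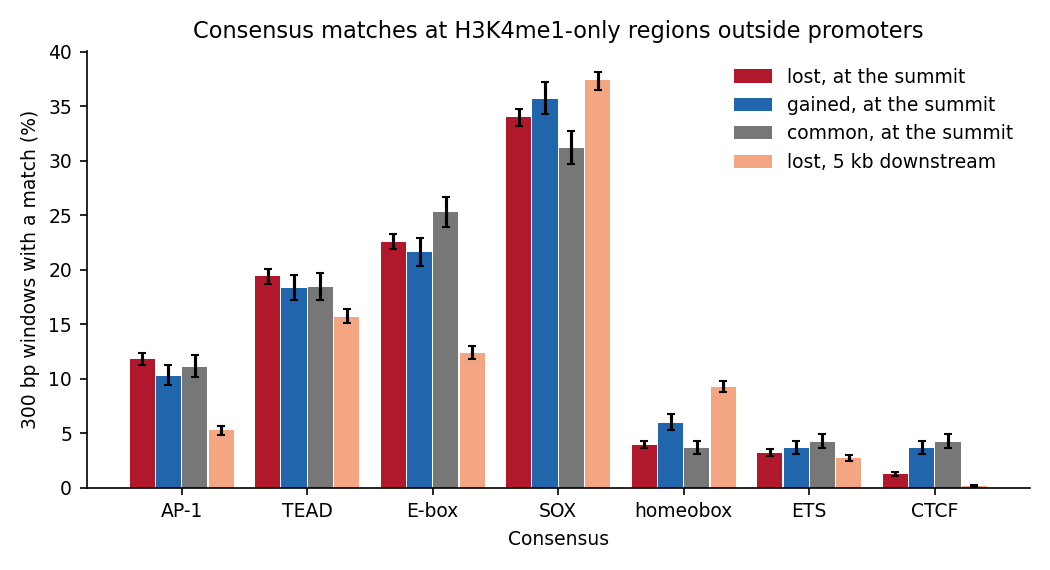
Share of 300 bp windows outside promoters with a match to each consensus (y axis, percent), at summits of lost, gained and common H3K4me1-only regions and 5 kb downstream of lost summits, with Wilson 95% intervals for counting error. AP-1 and E-box matches at lost summits (11.8% and 22.6%) exceed those downstream (5.27% and 12.4%), and CTCF matches are fewer at lost (1.26%) than at gained (3.66%) or common summits (4.24%).

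Peaks of the other targets, barred from the regions themselves, were counted within 10 kb of them. Of the lost regions, 48.6% had a FLAG peak within 10 kb in NanogWT and 56.0% in NanogBiD. For BRG1 the shares were 28.2% and 44.2%, a difference of -16.0 points (NanogWT minus NanogBiD, -16.7 to -15.3), and for H3K27ac 32.3% and 37.5%. More lost regions thus had a BRG1 peak within 10 kb in NanogBiD, whose BRG1 list was longer (53748 against 30859 peaks), than in NanogWT. With these full lists the same was seen around gained regions (26.3% and 44.2% for BRG1) and common regions (26.9% and 39.5%).

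These differences changed with the lengths of the lists. With lists of equal size, BRG1 peaks lay within 10 kb of 27.4% of lost regions in NanogWT and of 27.3% in NanogBiD, a difference of 0.167 points (-0.676 to 1.01). For FLAG the difference turned to 1.02 points (0.0862 to 1.96), and for H3K27ac it was -0.680 points (-1.44 to 0.0796). Around gained regions the BRG1 difference was then -0.217 points (-1.20 to 0.761), and around common regions it turned to 2.21 points (1.18 to 3.24), with 26.1% in NanogWT and 23.9% in NanogBiD. Of the 3 targets around the 3 classes, the full lists gave more regions with a NanogBiD peak throughout, and with equal lists this direction held beyond counting error for H3K27ac around gained regions alone (-1.18 points, -2.04 to -0.322).

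**Figure D4:**
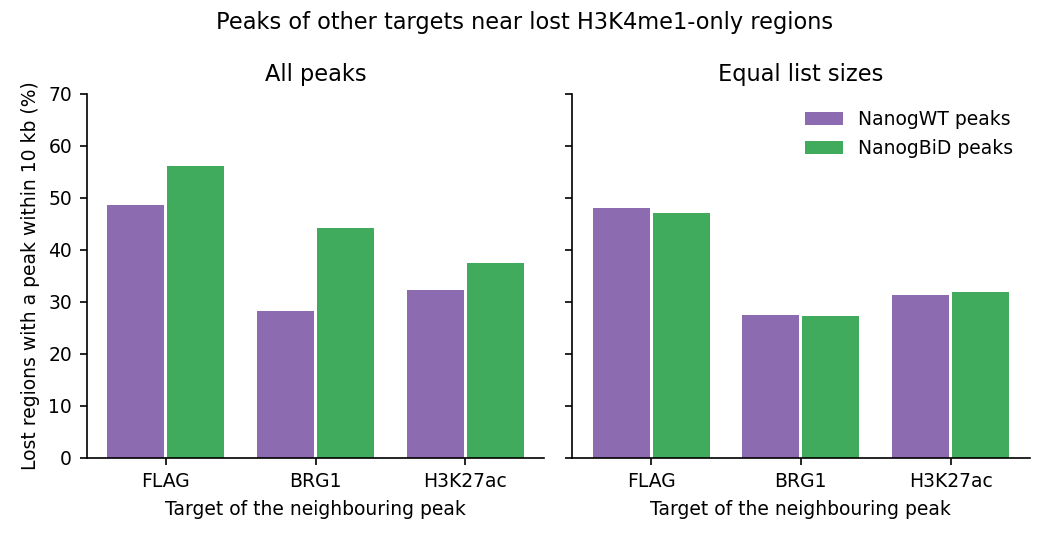
Share of lost H3K4me1-only regions with a FLAG, BRG1 or H3K27ac peak within 10 kb (y axis, percent) in NanogWT and NanogBiD, with all peaks (left) and with lists of equal size (right). The BRG1 shares are 28.2% and 44.2% with all peaks and 27.4% and 27.3% with equal lists.

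Few of the lost regions had a NanogBiD H3K4me1 peak close by. Peaks of both arms that overlapped or touched had been merged into common regions, so this share is partly set by the rule. The nearest NanogBiD H3K4me1 peak was within 1 kb of 1021 lost regions (6.80%; 6.41 to 7.22%), within 10 kb of 47.8%, and at a median distance of 10.6 kb. For gained regions the nearest NanogWT peak was within 1 kb of 9.86% and at a median of 8.34 kb, in a list longer than that of NanogBiD. The 1021 regions beside a NanogBiD H3K4me1 peak differed from the others in place. Promoters held 29.5% of them, against 16.9% of the 6150 regions at 1 to 10 kb and 12.7% of the 7835 regions further away. A NanogBiD H3K27ac peak within 10 kb was found at 58.7%, 63.9% and 14% of these 3 groups. Median heights were nearly the same, at 13, 13 and 12 tags. The 7835 regions more than 10 kb from any NanogBiD H3K4me1 peak were thus also mostly far from NanogBiD acetylation.

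The lost regions were scattered over the genome. The share of NanogWT H3K4me1-only regions that were lost ran from 68.1% on chromosome 7 to 78.3% on chromosome X, where it rested on 130 lost and 36 common regions. Within 50 kb of a lost region, 35.5% of the neighbouring H3K4me1 regions had a NanogWT and no NanogBiD peak, close to the 34.8% of all H3K4me1 regions, and around common regions 32.6% did. Joined across gaps of up to 10 kb, the lost regions formed 13607 runs, of which 12332 were single regions (82.2% of the lost regions). The longest runs had 6 regions. One spanned chr15:57631564-57660329 between genes, 34.3 kb from a start site of Zhx2, a zinc finger homeobox gene, with heights of 10 to 13 tags and 2 gained regions within 10 kb. The other lay in Cdyl, a chromodomain corepressor gene (chr13:35798534-35843865), with heights of 9 to 16 tags and 0 gained or common regions within 10 kb. The densest run of 4 covered chr7:120123431-120130523 at Zp2, an egg coat glycoprotein gene, with heights of 11 to 19 tags.

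Gene loci were taken as the gene body and 20 kb either side. Of 21755 protein-coding loci, 37.9% held at least 1 lost region, 32.7% held more lost than gained regions and 9.05% more gained than lost. At least 5 lost and 0 gained regions were counted at 133 loci with the full lists, and the reverse at 2. These counts were not repeated with equal lists. With equal lists, 28.3% of loci held a lost region, 21% more lost and 16.3% more gained regions. Lost regions outnumbered gained ones 2.94 to 1 over all loci with full lists, and the gene lists below are read beside these values.

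The loci with the most lost regions were long. Gm20388 had 51 and Fgfr2 had 30, but their annotated models ran over 4435 kb and 2961 kb and contained 71 and 29 other protein-coding genes, so these counts belong to stretches of a chromosome and not to single genes. Camta1, a calmodulin-binding transcription activator, held 19 lost and 4 gained regions over a locus of 985 kb, with 4 other protein-coding genes inside it. Nckap5 held 18 lost and 0 gained over 957 kb. Ptprm, a receptor tyrosine phosphatase of cell contacts, held 17 and 3, the adhesion genes Sdk1 and Tenm2 15 and 4 each, Aff3 14 and 3, Nav2 14 and 5, and the histone deacetylase gene Hdac9 14 and 2. Per length, the densest loci with at least 5 lost and 0 gained regions ran over 53.3 to 97.9 kb, beside a median of 57.4 kb for all protein-coding loci. They were Trcg1 (9.38 per 100 kb), Camkv (9.26), Rasl12 (8.87), Zp2 (8.54) and Asb1 (8.47), each with 5 lost regions, followed by Acad10 with 6 (7.55), Zfp507, Zmat5, Rmi2 and Acsf2. Over all protein-coding loci the density was 0.745 per 100 kb.

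Transcription factors of mesenchyme held lost regions at 8 of 15 loci (53.3%, against 37.9% of all loci; median locus 86.6 kb against 57.4 kb), with 29 lost and 7 gained regions in all. Runx2, the regulator of bone formation, had 9 lost and 2 gained regions. All 9 lay in the gene body, with heights of 10 to 16 tags, and the tallest (chr17:44624090-44624994) and the lowest (chr17:44662635-44663494) of them held an AP-1 match. Runx1 had 4 lost and 0 gained regions, at 9, 15, 11 and 9 tags. Prrx2, a limb and craniofacial homeobox gene, had 4 lost and 1 gained, among them a region of 13 tags 0.255 kb from its start site, and Tcf4 had the same counts. Snai2, which represses epithelial genes, had 0 lost and 1 gained region, and Twist1, Snai1 and Prrx1 had neither. With equal lists the sums were 16 lost and 10 gained, at 53.3% of loci against 28.3% of all.

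Matrix genes held lost regions at 9 of 17 loci (52.9%, against 37.9% of all loci), with 16 lost and 4 gained. Their median locus was 78.2 kb, against 57.4 kb for all loci. Col5a1, a fibrillar collagen gene, had 4 lost and 0 gained regions, at 18, 14, 14 and 17 tags, the first of them with an AP-1 match 4.56 kb from a start site. Col6a3 had 3 lost and 1 gained. Fn1, the fibronectin gene, and Lox, which crosslinks collagen, each had 0 lost and 1 gained, and Col1a1 had neither. Contractile genes held lost regions at 3 of 10 loci (30%, below the 37.9% of all loci), Actn1, Cnn1 and Vcl with 2 each, and 0 gained regions. AP-1 genes themselves held single lost regions at 3 of 9 loci (33.3%, also below), Atf3, Fosl1 and Jund, and 0 gained. With equal lists 6 of 17 matrix loci held lost regions (35.3%), 30% of contractile and 22.2% of AP-1 loci, against 28.3% of all. The sums were then 9 lost and 6 gained for matrix, 3 and 2 for contractile, and 2 and 3 for AP-1 genes.

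Wnt genes held lost regions at 11 of 17 loci (64.7%, against 37.9% of all loci; median locus 81.6 kb), with 27 lost and 4 gained. The ligand gene Wnt5b had 5 lost and 0 gained regions, the tallest at 24 tags (chr6:119482763-119483843), while Wnt5a had 0 and 1. The coreceptor gene Lrp5 had 5 lost and 0 gained, at 12, 15, 10, 19 and 20 tags, while Lrp6 had 0 and 1. Among the nuclear effectors, Lef1 had 4 lost and 2 gained, Tcf7l2 4 and 0, and Tcf7l1 3 and 0. With equal lists the sums were 16 lost and 6 gained. Of the 17 loci, 47.1% then held a lost region (28.3% of all loci), 47.1% more lost regions (21% of all) and 17.6% more gained regions (16.3% of all).

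TGF-beta and BMP genes held lost regions at 9 of 17 loci (52.9%, against 37.9% of all loci), with 15 lost and 4 gained. Their median locus was 68.4 kb, against 57.4 kb for all loci. The ligand gene Tgfb2 had 3 lost and 0 gained regions, at 16, 14 and 11 tags. Tgfb3, the receptor gene Tgfbr1, the mediator Smad4 and the inhibitor Smad6 had 2 each and 0 gained. Smad2 had 1 lost and 2 gained, and Id1, a BMP target, 0 and 1. With equal lists the sums were 6 lost and 5 gained, and 4 of 17 loci held a lost region (23.5%), below the 28.3% of all loci.

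Pluripotency genes held lost regions at 10 of 18 loci (55.6%, against 37.9% of all loci), with 12 lost and 4 gained, close to the ratio of 2.94 over all loci. Esrrb had 2 lost regions, at 11 and 10 tags, and 1 gained, and Tfcp2l1 had 2 and 0. Single lost regions lay at Klf4 (13 tags) and Sall4 (12 tags), and Nanog itself had 0 lost and 1 gained. Germ layer regulators held lost regions at 6 of 10 loci (60%), with 10 lost and 6 gained, a ratio of 1.67 against 2.94, and 2 of the 10 loci held more lost than gained regions (32.7% of all loci). Eomes, a regulator of mesendoderm, had 3 lost and 1 gained region, the lost ones at 14, 13 and 14 tags, and Pax6, a regulator of eye and neural fate, had 3 lost and 0 gained, at 16, 12 and 14 tags. Cdx2 had 0 and 1. With equal lists lost and gained regions were as many as each other for both groups, at 6 and 6 for pluripotency genes and 7 and 7 for germ layer regulators. Lost regions were then at 33.3% of pluripotency loci and 60% of germ layer loci, against 28.3% of all.

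Axon guidance and synaptic adhesion genes, a list of very long genes with a median locus of 977 kb, held lost regions at 16 of 16 loci (37.9% of all loci), with 78 lost and 23 gained. Dlg2, a synaptic scaffold gene, had 11 lost and 1 gained, with lost heights of 10 to 15 tags. Slit3, a guidance ligand gene, had 8 and 1, and Nrxn3, a presynaptic adhesion gene, 8 and 5. Per length the list held 0.463 lost regions per 100 kb, below the 0.745 of all loci. The highest densities were at germ layer regulators (1.73), Wnt genes (1.5) and mesenchymal factors (1.37). Germ layer regulators also had the highest gained density of the 9 lists, at 1.04 per 100 kb against 0.254 over all loci, and held 14 common regions. With equal lists the sums for the axon guidance list were 51 lost and 34 gained.

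**Figure D5:**
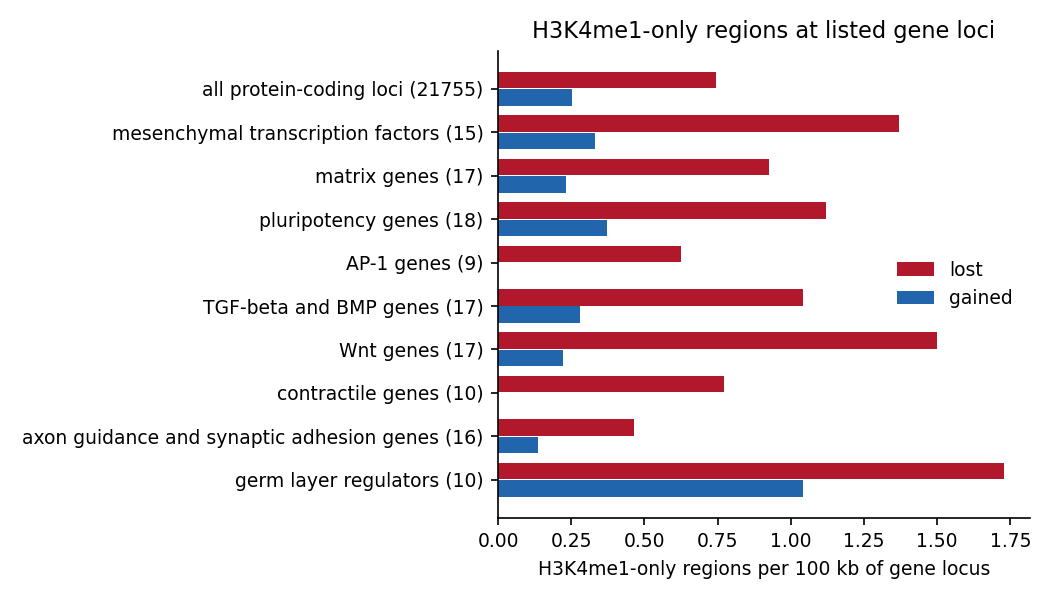
Lost and gained H3K4me1-only regions per 100 kb of gene locus (x axis; gene body and 20 kb either side) for each gene list, with the number of genes in brackets. Lost regions outnumber gained ones in all 9 lists with the full peak lists, whereas with equal lists they do not at AP-1 genes (2 lost, 3 gained), pluripotency genes (6, 6) and germ layer regulators (7, 7), and the lost density with full lists runs from 0.463 at axon guidance and synaptic adhesion genes to 1.73 at germ layer regulators.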

How the data were processed

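CUT&Tag had been performed in MEF at day 5 for FLAG, BRG1, H3K27ac and H3K4me1 in the NanogWT and NanogBiD arms. Per the labels and methods, the authors trimmed reads with Trim Galore 0.6.4, aligned them to mm10 with Bowtie2 2.4.5, filtered them with SAMtools 1.16.1, merged replicates, and called peaks with MACS 1.4.2 without a named control. The deposited peak lists hold a significance score for each peak, at least 50 in every list. The deposited summit lists hold a signal, the whole number of tags at the summit, here the summit height. Neither was scaled to depth, which is unknown, and a deeper library gives more peaks.

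Regions, classes and overlaps (at least 1 bp) were computed with Python 3.11.15, pandas 2.3.3 and SciPy 1.17.1, with GENCODE M21 genes and the RefSeq GRCm38 genome, whose soft-masking gave repeats. Shares carry Wilson, paired or Newcombe 95% intervals and ratios exact binomial ones, for counting error only, since regions are not replicates. Classes were checked on 20000 simulated regions, of which 0 were misplaced. Loci were named by count of lost regions (the top 10), by density with at least 5 lost and 0 gained, and from 9 gene lists (129 genes), in which the members with most lost regions and any with more gained than lost were named. Regions were named by summit height and run length. The members, lists and rules were chosen with earlier results of these data known. Alternatives changed the peak lists, the rule, distances and windows. Of the named regions' sequences, none was taken from chromosome 18.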

Additional observations from a re-analysis of the deposited data

How the results depend on the processing

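Cut-offs on peaks thinned the H3K4me1 lists and the 6 lists that exclude regions together, and merging across gaps of 500 bp went together with exclusion within 500 bp of another target. The cut-offs so admitted other regions, since 2019 of 6622 lost regions (scores of at least 100), 768 of 4022 (top 20000), 3834 of 11331 (15 tags) and 8837 of 9565 (equal lists) overlapped a lost region of the full lists. Of the values that answered a comparison 21 stayed within counting error of the main value (counts within 1.5 times), 39 moved and 1 reversed. These counts leave out the restriction to chromosomes 1 to 19 and X, which removed no lost region and could not move a value. The number of lost regions was 6622 when every peak scored at least 100, 4022 when each list kept only its top 20000 peaks by score, and 9565 with equal list sizes. The log2 ratio of lost to gained regions (1.56) stayed above 0 in all settings, at 2.26, 0.47 and 0.38 in the same order, 2.44 with summits of at least 15 tags, 1.60 without regions near a peak of the other arm, and 0.96 with exclusion by NanogWT peaks alone. The promoter difference between lost and common regions (-19.4 points) kept its direction in all settings, at -32.1 (scores of at least 100), -29.3 (top 20000), -27.2 (15 tags) and -15.5 (NanogWT exclusion). The share within 1 kb of a NanogBiD H3K4me1 peak (6.80%) was 1.4%, 0.970%, 6.08% and 2.97% with scores of at least 100, the top 20000, equal lists and 15 tags. It was 2.04% with merging and exclusion within 500 bp together, 2.43% without regions within 1 kb of another target, and 24.0% at 5 kb; leaving out regions near the other arm's peaks makes it 0 by construction. The AP-1 difference (2.25 points) was 5.47 (scores of at least 100), 4.82 (top 20000), 3.86 (15 tags), 0.845 (NanogWT exclusion) and 0.780 in windows of 50 bp either side. The FLAG difference within 10 kb (-7.41 points) was -6.45, -0.671, -8.56 and -11.4 with scores of at least 100, the top 20000, 15 tags and NanogWT exclusion, and -6.28 within 5 kb. With the top 20000 it was within counting error (-1.65 to 0.304), and with equal lists it reversed to 1.02. The BRG1 difference changed sign to 0.771 (-0.259 to 1.80, top 20000) and 0.167 (-0.676 to 1.01, equal lists), both within counting error of 0. The cause of these changes was not tested. Loci with more lost than gained regions (32.7%) were 21.9%, 12.9%, 21% and 31.4% with scores of at least 100, the top 20000, equal lists and 15 tags, 29.9% with merging and exclusion within 500 bp together, 29.2% without regions within 1 kb of another target, 31.1% without regions near the other arm's peaks, 19.2% in gene bodies and 22.8% with 5 kb either side. The same peak-list settings for BRG1, H3K27ac, CpG-rich windows, CTCF, repeats and AP-1 outside promoters were added after seeing the data; there 28 values stayed, 18 moved and 2 changed sign, both for BRG1. The CpG-rich and CTCF differences kept their sign in all of them, and the AP-1 difference outside promoters ran from -0.757 to 2.39 points, beyond counting error with scores of at least 100 (2.39, 0.309 to 4.32) and with merging and exclusion within 500 bp together (1.24, 0.0312 to 2.39). No paired analysis was possible because replicates were merged into 1 list per group, with no replicate numbers in the labels.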
